A study of Mus musculus with 5 samples.

Results

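C-type lectins, Siglecs and galectins are the main families of proteins through which white blood cells read sugars, and their genes were followed through the peritoneal inflammation that pristane provokes. The members were the rows whose symbol begins with Clec and a digit, with Siglec, or with Lgals and a digit, without Clec10a, that were above 0 FPKM (fragments scaled by transcript length and library depth) in at least 1 of 5 libraries. This gave 38 of 22815 rows: 25 Clec genes, 8 Lgals genes and 5 Siglec genes. Another 9 rows matched by symbol but were listed at 0 in all 5 libraries, namely Clec12b, Clec18a, Clec2e, Clec2l, Clec3a, Clec3b, Lgals12, Lgals2 and Siglec15. The member nearest to that limit was Lgals6, with a maximum of 0.00025 FPKM. Peritoneal lavage cells came from mice aged 8 weeks, and RNA was sequenced by Smart-seq2, a protocol for small amounts of polyadenylated RNA. The groups were mice labelled Irf8KO and described as Irf8-deficient that were given pristane, a hydrocarbon oil (n = 2), C57BL/6 wild-type (WT) mice given pristane (n = 2), and WT mice given phosphate-buffered saline (PBS, n = 1). The study's title places these cells in a model of bleeding into the lung, and the libraries ask how the oil and the genotype change the peritoneal cells. There was no Irf8KO library with PBS, and the labels give neither the allele, the dose, the time after injection nor whether replicates were separate animals, so p-values measure only the spread between these libraries.

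C-type lectin receptors bind sugars, lipids or proteins of microbes and of damaged cells. Some, such as dectin-1 and Mincle, carry or borrow activating motifs that recruit the kinase Syk, while others carry inhibitory motifs that recruit phosphatases. Siglecs bind sialic acid, the sugar that caps most mammalian glycans, and most of them damp the cell that carries them. Galectins are soluble proteins that bind galactose-containing glycans inside and outside cells. Macrophages, monocytes, neutrophils, dendritic cells and B cells each carry a different set, so several members also serve as cell markers.

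Irf8, the gene named in the genotype, stood at 121 and 59.4 FPKM in the Irf8KO-labelled libraries, 63.3 and 48.7 FPKM in WT pristane and 32.4 FPKM in WT PBS. Its RNA was therefore not reduced in the Irf8KO-labelled libraries, and a gene-level value cannot tell which exons were read. Steps between the lowest values put the depth at about 2286000 to 5110000 fragments per library, and a single fragment per 1 kb then equals 0.196 to 0.437 FPKM. WT PBS was the shallowest library (0.437 FPKM) and Irf8KO pristane 1 the deepest (0.196 FPKM), so low values and zeros are least certain in WT PBS. Markers of large resident macrophages (8 of 8 genes measured) summed to 1547 and 2619 FPKM in the Irf8KO-labelled libraries, 140.1 and 221 FPKM in WT pristane and 2247 FPKM in WT PBS. Timd4 of this list did not follow the sum, at 0.0957 and 0.552 FPKM, 0.676 and 0.838 FPKM, and 26.9 FPKM in the same order. Neutrophil markers (7 of 8) summed to 45519 and 23368 FPKM, 16483 and 14549 FPKM, and 158 FPKM in the same order of libraries. S100a8 and S100a9 made up most of each of these sums. Inflammatory monocyte markers (6 of 6) summed to 277 and 164 FPKM, 1047 and 1813 FPKM, and 787 FPKM, where Plac8 made up most of the PBS value. In such mixed samples a change in the share of a cell type and a change of RNA per cell cannot be told apart, and the part these cell types play in the results below was not tested.

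The promoters of members with different patterns across the libraries are shown here, as RefSeq gives them for GRCm38.p6, from 250 bases before the start to 50 bases from it. They were searched on both strands for an interferon response element (ISRE: GAAA, any 2 bases, GAAA), an ETS-IRF composite element (GGAA, any 2 bases, GAAA), of the kind bound by IRF8 together with PU.1, a C/EBP motif (TTGCNNAA), a TATA box (TATAAA), an NF-kB motif (GGG, any 2 bases, TTTCC) and a PU.1 motif (GAGGAAGT), and every match is in capitals.
Clec4a1 (DCIR4, chr6:122921598-122921897, plus strand): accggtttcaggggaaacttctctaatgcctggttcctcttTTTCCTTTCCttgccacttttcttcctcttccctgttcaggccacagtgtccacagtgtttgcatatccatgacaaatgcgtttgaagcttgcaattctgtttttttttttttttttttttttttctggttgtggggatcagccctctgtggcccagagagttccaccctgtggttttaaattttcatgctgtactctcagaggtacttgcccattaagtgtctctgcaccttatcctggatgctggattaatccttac
Clec4e (Mincle, chr6:123289822-123290121, minus strand): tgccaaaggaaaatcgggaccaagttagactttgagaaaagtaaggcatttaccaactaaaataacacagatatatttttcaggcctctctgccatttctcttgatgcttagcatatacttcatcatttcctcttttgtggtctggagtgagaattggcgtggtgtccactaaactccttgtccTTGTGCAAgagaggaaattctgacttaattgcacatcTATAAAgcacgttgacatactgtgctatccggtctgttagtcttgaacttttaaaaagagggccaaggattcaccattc
Clec7a (dectin-1, chr6:129472730-129473029, minus strand): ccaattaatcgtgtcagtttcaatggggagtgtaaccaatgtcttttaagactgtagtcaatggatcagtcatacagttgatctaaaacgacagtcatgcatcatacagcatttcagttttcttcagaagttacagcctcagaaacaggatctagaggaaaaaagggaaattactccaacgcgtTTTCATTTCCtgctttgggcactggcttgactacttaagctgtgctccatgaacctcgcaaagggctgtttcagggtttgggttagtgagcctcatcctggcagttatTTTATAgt
Lgals9 (galectin-9, chr11:78984875-78985174, minus strand): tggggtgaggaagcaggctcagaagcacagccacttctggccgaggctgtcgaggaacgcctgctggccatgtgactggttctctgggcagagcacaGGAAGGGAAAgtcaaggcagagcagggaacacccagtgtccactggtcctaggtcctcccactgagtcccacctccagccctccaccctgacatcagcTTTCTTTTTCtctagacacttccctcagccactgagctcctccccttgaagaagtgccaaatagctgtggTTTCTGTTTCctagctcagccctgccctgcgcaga
Clec4a1, whose values were lower in the Irf8KO-labelled libraries than in WT pristane, has an ETS-IRF match that begins 209 bases before the start. Clec7a, which was also lower there, has one 66 bases before the start and a TATA match after it. Lgals9 holds an ETS-IRF match and both an upstream and a downstream ISRE match, with no overlap between them. Clec4e, whose values overlapped between the pristane groups, holds a C/EBP match 66 and a TATA match 29 bases before the start. Among 31 members with a promoter in the table, 4 (12.9%) hold an ISRE match, against 3.44% of all 32851 promoters, and 4 (12.9%) hold an ETS-IRF match, against 2.72%. A C/EBP match was found in 6 members (19.4%, against 10.8%) and a TATA match in 7 (22.6%, against 13.6%). A member counted if any of its listed promoters matched, whereas the share of all promoters counts each promoter singly, so the units differ. The NF-kB letters occur in 1.63% and the PU.1 letters in 3.20% of all promoters and in 0 members, which says only that these letters are not in this window. The 4 members with an ISRE match were Clec2d, Clec4b1, Clec4d and Lgals9, and their values do not form a single pattern. An ETS-IRF match was held by Clec2i, Clec4a1, Clec7a and Lgals9. All 4 were lower in both Irf8KO-labelled libraries than in either WT pristane library, as were 27.1% of all genes tested. So were Clec12a, Clec2g, Clec4a2, Clec4a3, Clec4b1, Clec9a, Lgals3, Lgals8, Siglech and the row listed as Siglec5 (searched as Siglecf), without an ETS-IRF match. Clec4a4, Lgals1 and Siglec1 were lower as well but had no promoter to search. The bearing of any of these matches on the levels was not tested.

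Summed over the members, lectin RNA was most abundant in WT pristane, with the Irf8KO-labelled libraries between those and WT PBS. The 38 members summed to 2269 and 1984 FPKM in the Irf8KO-labelled libraries, 3882 and 3900.3 FPKM in WT pristane and 635 FPKM in WT PBS, or 0.389% and 0.383%, 0.801% and 0.863%, and 0.135% of all FPKM. A few genes carried most of this. Lgals3 was the highest member in both WT pristane libraries, Clec4e in both Irf8KO-labelled libraries, and Clec4d in WT PBS. Of the 38 members, 30 reached 1 FPKM in at least 1 library and were tested (19 Clec, 6 Lgals and 5 Siglec genes). The other 8, Clec11a, Clec14a, Clec1a, Clec2h, Clec4b2, Clec4f, Lgals4 and Lgals6, peaked between 0.00025 and 0.481 FPKM.

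**Figure D1:**
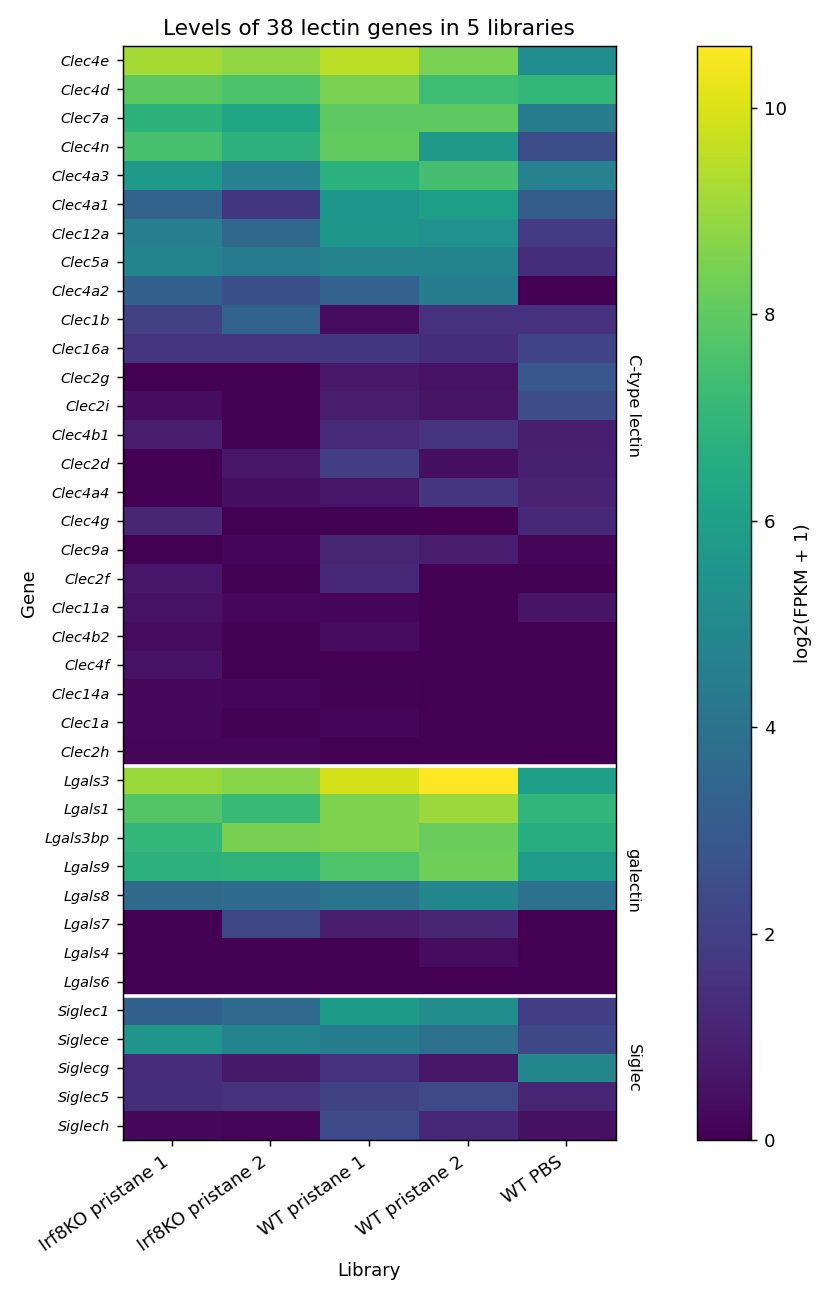
Levels of the 38 member genes as log2(FPKM + 1), 1 row per gene sorted by mean level within each family and 1 column per library. Lgals3 and Clec4e are the brightest rows in both Irf8KO-labelled libraries and in WT pristane 1, and Lgals3 and Lgals1 in WT pristane 2, while Siglecg, Clec2g and Clec2i are brightest in WT PBS.

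WT pristane against WT PBS asked which lectin genes respond to the oil. In this comparison 8 of the 30 tested members rose and 3 fell at an adjusted p under 0.05 (limma on log2(FPKM + 1), Benjamini-Hochberg over 11117 genes), that is 11 members where 10.6% of all genes were called. The higher share over all genes was 5.18% and the lower share 5.46%. The members that rose were Clec4e, Clec7a, Clec5a, Clec12a, Clec4a2, Lgals3, Lgals9 and Siglec1, and those that fell were Siglecg, Clec2g and Clec2i. Clec2g and Clec2i reached 1 FPKM in WT PBS alone. They entered both tests against PBS only through the library where they were high. The median log2 change of the tested members was 1.22, against −0.07 over all genes tested, and 1.55 over the 26 members not listed at 0 throughout a group. Irf8KO pristane against WT PBS called 5 higher members (Clec4e, Clec5a, Clec7a, Lgals3 and Siglece) and 3 lower ones (Siglecg, Clec2g and Clec2i), or 8 members where 8.54% of all genes were called (3.81% higher and 4.72% lower), with a median of 0.51 against −0.05. At an unadjusted p under 0.05, 10 members were higher and 3 lower in Irf8KO pristane, where 33.7% of all genes passed (15.6% higher and 18.1% lower), and 15 were higher and 3 lower in WT pristane, where 33.8% did (15.9% higher and 17.8% lower). Both Irf8KO-labelled libraries lay above the PBS value in 16 members and below it in 11, against 40.7% and 46.0% of all genes, and both WT pristane libraries lay above it in 21 and below it in 6, against 37.3% and 44.5%. The 2 comparisons share the PBS library. That library has no replicate and was assumed to vary like the pristane pairs, and omitting any 1 of 4 pristane libraries gave 0 members and 0 genes past the threshold (limma), with 17 to 20 members at an unadjusted p under 0.05 for WT pristane and 10 to 14 for Irf8KO pristane.

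Irf8KO pristane against WT pristane asked where levels after pristane differ with the genotype label. Without an Irf8KO library given PBS, a different response cannot be told apart from a difference present before pristane. The values of 24 tested members were on average lower in the Irf8KO-labelled libraries and those of 6 higher, with a median log2 change of −0.78, against −0.00 over all genes tested. No member passed the threshold, where 0.0270% of all genes did (3 genes), and 13 members had an unadjusted p under 0.05 (limma), where 20.6% of all genes did. All 13 were lower, which 10.1% of all genes were, with 10.5% higher. In 17 members both values of the Irf8KO-labelled libraries lay below both WT pristane values, which held for 27.1% of all genes. In 2 members, Clec1b and Siglece, both lay above, as in 26.1% of all genes. A member can enter the test through the group where it is high: 5 tested members (Clec2d, Clec2f, Clec4b1, Clec9a and Siglech) reached 1 FPKM in WT pristane alone, and Clec2g and Clec2i in WT PBS alone. These counts therefore describe the tested members and are no test of the family. With the 4 pristane libraries alone in the fit, 3 members passed (Siglec1, Clec4a1 and Clec7a), where 4.13% of all genes did.

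**Figure D2:**
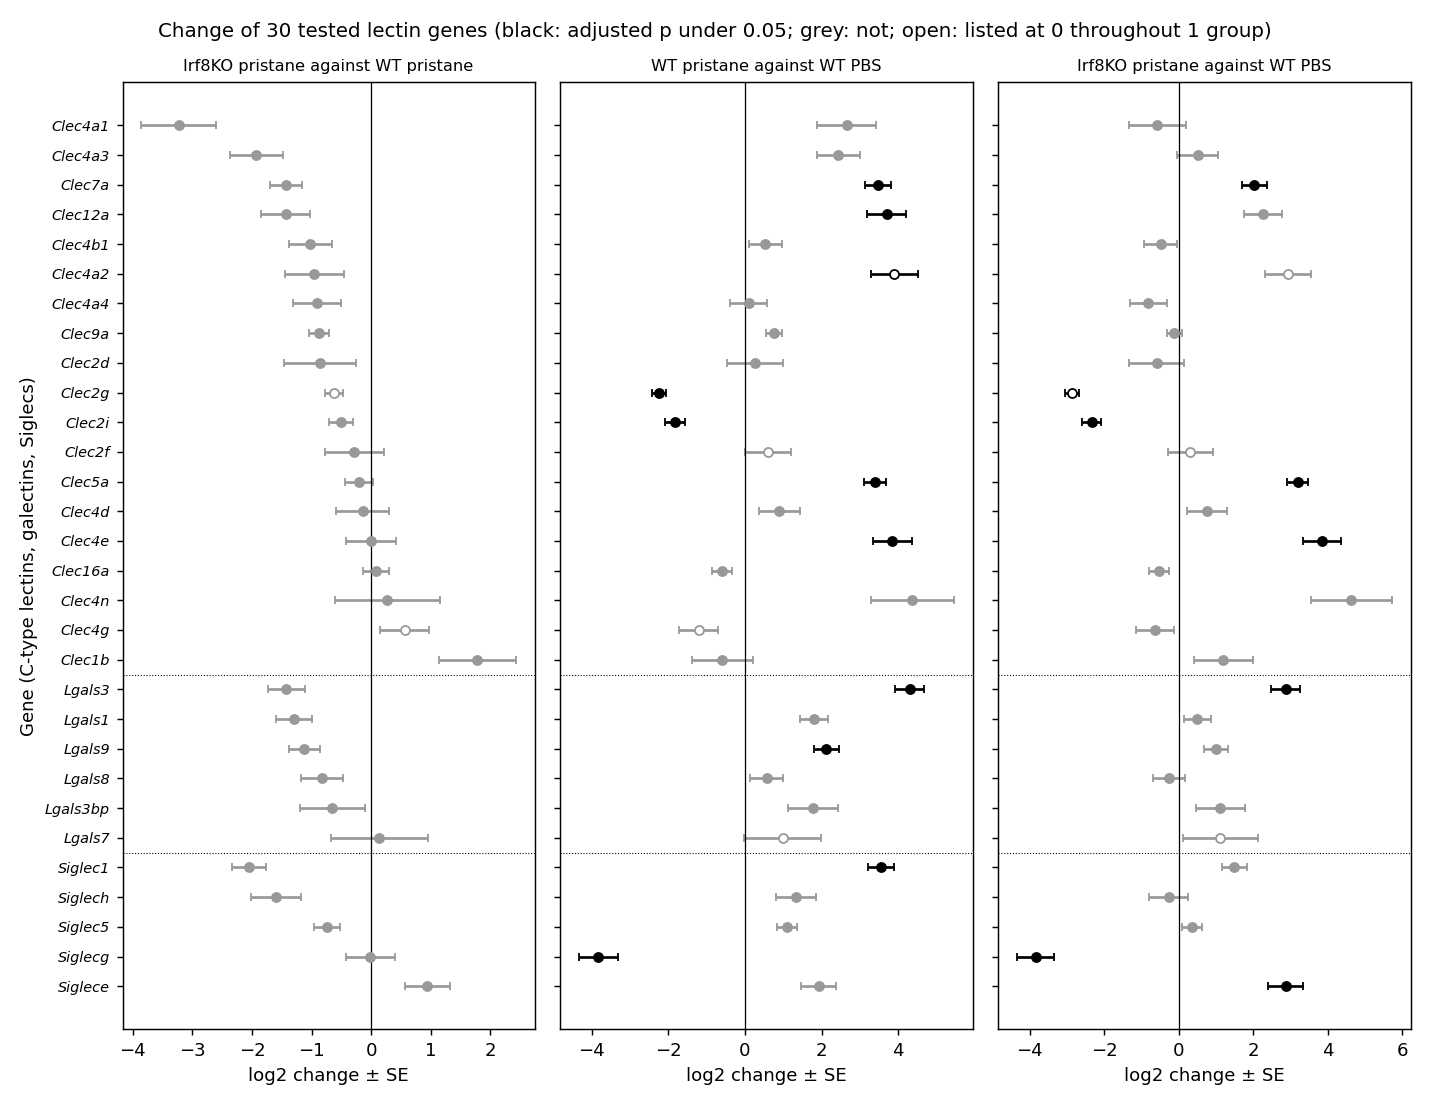
Log2 change on the log2(FPKM + 1) scale with its standard error (limma) for the 30 tested members, in 1 panel per comparison, with C-type lectins at the top, galectins in the middle and Siglecs at the bottom. Black points have an adjusted p under 0.05, and open points belong to genes listed at 0 throughout 1 group. In the first panel 24 points lie left of 0 and none is black.

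Of the 8 activating C-type lectins tested, 3 (Clec4e, Clec5a and Clec7a) rose in each comparison with PBS, where 3.81% of all genes rose in Irf8KO pristane and 5.18% in WT pristane. The values of Clec4e, Clec4d, Clec4n and Clec5a overlapped between the pristane groups. Clec4e encodes Mincle, a receptor for mycobacterial cord factor and for a protein released by dying cells. It stood at 568 and 464 FPKM in the Irf8KO-labelled libraries, 741 and 356 FPKM in WT pristane and 34.8 FPKM in WT PBS. All 4 pristane libraries lay above the PBS library, and the groups given pristane overlapped. Clec4e rose in WT pristane against WT PBS by 3.85 ± 0.51 on the log2 scale (SE, adjusted p = 0.0338, limma) and in Irf8KO pristane against WT PBS by 3.85 ± 0.51 (adjusted p = 0.0378, limma). Between the pristane groups Clec4e differed by −0.00 ± 0.42 (log2) with a 95% interval from −1.15 to 1.15 (limma), which leaves room for a change of that size in either direction.

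Clec4d encodes MCL, the partner that brings Mincle to the cell surface. It stood at 240.1 and 192 FPKM in the Irf8KO-labelled libraries, 352 and 159.8 FPKM in WT pristane and 127 FPKM in WT PBS. The pristane libraries were higher than the PBS library by a margin that did not pass the test (log2 change 0.90 ± 0.54 SE for WT pristane, adjusted p = 0.313, limma), and the change was 0.33 without WT pristane replicate 1 and 1.46 without replicate 2. The ratio of Clec4e to Clec4d, both per length, was 2.37 and 2.42 in the Irf8KO-labelled libraries, 2.10 and 2.23 in WT pristane and 0.274 in WT PBS. Both genes were higher in WT pristane replicate 1 than in replicate 2, so the ratio varied less among the pristane libraries than the levels did.

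Clec4n encodes dectin-2, the receptor for fungal mannans. Its values were 179.5 and 111 FPKM in the Irf8KO-labelled libraries, 267 and 50.7 FPKM in WT pristane and 4.71 FPKM in WT PBS. The WT pristane values differed between replicates more than those of Clec4d and Clec4e, and the log2 change against WT PBS of 4.36 ± 1.08 (SE) had an adjusted p of 0.0807 (limma). Clec5a encodes MDL-1, which signals through the adaptors Tyrobp and Hcst. It stood at 26.9 and 19.0 FPKM in the Irf8KO-labelled libraries, 25.8 and 26.6 FPKM in WT pristane and 1.59 FPKM in WT PBS. The rise was 3.39 ± 0.28 in WT pristane against WT PBS (adjusted p = 0.0255, limma) and 3.19 ± 0.28 in Irf8KO pristane against WT PBS (adjusted p = 0.0297, limma). Between the pristane groups the change was −0.20 ± 0.23, with a 95% interval from −0.85 to 0.44.

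Clec7a encodes dectin-1, the receptor for fungal beta-glucan. Its values were 115 and 73.2 FPKM in the Irf8KO-labelled libraries, 251 and 249 FPKM in WT pristane and 21.7 FPKM in WT PBS. The 3 groups did not overlap, and the Irf8KO-labelled libraries lay between the others. Clec7a rose by 3.47 ± 0.33 (SE) in WT pristane against WT PBS (adjusted p = 0.0267, limma) and by 2.04 ± 0.33 in Irf8KO pristane against WT PBS (adjusted p = 0.0462, limma). Clec7a differed between the pristane groups by −1.43 ± 0.27 (unadjusted p = 0.00595, adjusted p = 0.123, limma), and it was −1.76 to −1.11 when any 1 pristane library was left out. Clec7a was thus the exception among the 5 activating receptors that stood above 10 FPKM in all 4 pristane libraries. The adjusted p (limma) was 0.0494 with only the pristane libraries in the fit. It was 0.132 with a pseudocount of 0.1, 0.179 with replicate number as a block and 0.206 without a filter on low values.

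The other activating members were scarce. Clec9a encodes DNGR-1, the receptor of type 1 conventional dendritic cells for exposed actin. It was listed at 0 and 0.0974 FPKM in the Irf8KO-labelled libraries, and stood at 1.12 and 0.740 FPKM in WT pristane and 0.132 FPKM in WT PBS. Its log2 change between the pristane groups was −0.87 ± 0.17 (SE, adjusted p = 0.127, limma). Clec9a reached 1 FPKM only in WT pristane 1, so it entered the test through the group where it was high. Both Irf8KO-labelled values lay under the level of a single fragment per 1 kb there, 0.196 and 0.302 FPKM. Of the 5 dendritic cell markers listed beside it, Xcr1 stood at 0.171 and 0 FPKM in the Irf8KO-labelled libraries, 1.21 and 0.449 FPKM in WT pristane and 0.284 FPKM in WT PBS, and the whole list summed to 25.0 and 25.0 FPKM, 74.2 and 85.3 FPKM, and 65.7 FPKM. Clec1b encodes CLEC-2, the podoplanin receptor of platelets. It stood at 3.17 and 9.36 FPKM in the Irf8KO-labelled libraries, 0.281 and 1.85 FPKM in WT pristane and 1.87 FPKM in WT PBS. This was the largest positive difference between the pristane groups among the tested members, 1.78 ± 0.65 (SE), and it did not pass (adjusted p = 0.245, limma); with any 1 pristane library left out it was 1.13 to 2.44. Of 7 platelet markers, Gp9 was listed at 0 throughout, Itga2b, Gp1ba and Gp1bb did not exceed 0.258 FPKM, Gp6 appeared only in WT pristane 1, at 0.763 FPKM, and Ppbp only in WT pristane 2, at 3.32 FPKM, while Pf4, which macrophages also express, held 85.4 and 204 FPKM, 34.6 and 177 FPKM, and 1118 FPKM. Clec4b1, which encodes DCAR, an activating relative of the DCIR receptors, stayed at or under 2.07 FPKM.

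Clec12a and Clec4a1 to Clec4a4 were listed together as inhibitory C-type lectins and their relatives. Their values were lower in the Irf8KO-labelled libraries than in WT pristane, and no difference passed the test. All 5 tested genes (Clec12a, Clec4a1, Clec4a2, Clec4a3 and Clec4a4) had a log2 change below 0, with a median of −1.43, and 0 passed (limma), with 3 at an unadjusted p under 0.05, where 20.6% of all genes were (10.1% lower). Clec4a1 to Clec4a4 encode the DCIR family, whose founding member carries an inhibitory motif. Which of the other DCIR genes encode such a motif was not examined, so the median describes these genes and not inhibitory receptors as a class. Clec4a1 stood at 9.37 and 2.28 FPKM in the Irf8KO-labelled libraries, 46.1 and 62.3 FPKM in WT pristane and 7.65 FPKM in WT PBS. Both Irf8KO-labelled libraries lay below both WT pristane libraries, 1 of them above and 1 below the PBS library. The change between the pristane groups was −3.23 ± 0.63 (SE, 95% interval −4.97 to −1.49, adjusted p = 0.129, limma), the largest difference of any tested member in that comparison, and −4.06 to −2.40 with any 1 pristane library left out.

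Clec4a3 was the most abundant DCIR gene. Its values were 50.9 and 25.1 FPKM in the Irf8KO-labelled libraries, 109 and 177 FPKM in WT pristane and 24.8 FPKM in WT PBS. The groups given pristane did not overlap (log2 change −1.92 ± 0.45 SE, adjusted p = 0.154, limma). Clec4a2 was listed at 0 in WT PBS and stood at 8.68 and 5.09 FPKM in the Irf8KO-labelled libraries and 9.08 and 20.9 FPKM in WT pristane. It passed against PBS in WT pristane (adjusted p = 0.0412, limma), but a listed 0 may be a failed estimate and no fold is given. The DCIR genes resemble each other in sequence, and fragments may have been divided among them.

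Clec12a encodes MICL, an inhibitory receptor for uric acid crystals on myeloid cells. It stood at 23.1 and 10.6 FPKM in the Irf8KO-labelled libraries, 48.0 and 40.7 FPKM in WT pristane and 2.48 FPKM in WT PBS. Clec12a rose by 3.70 ± 0.50 (SE) in WT pristane against WT PBS (adjusted p = 0.0348, limma), and the change in Irf8KO pristane against WT PBS was 2.27 ± 0.50 (adjusted p = 0.0714, limma). The ratio of Clec12a to the activating Clec5a was 0.859 and 0.560 in the Irf8KO-labelled libraries, 1.86 and 1.53 in WT pristane and 1.56 in WT PBS. The ratio was thus lower in both Irf8KO-labelled libraries than in the other 3. The difference between these genes was not tested.

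**Figure D3:**
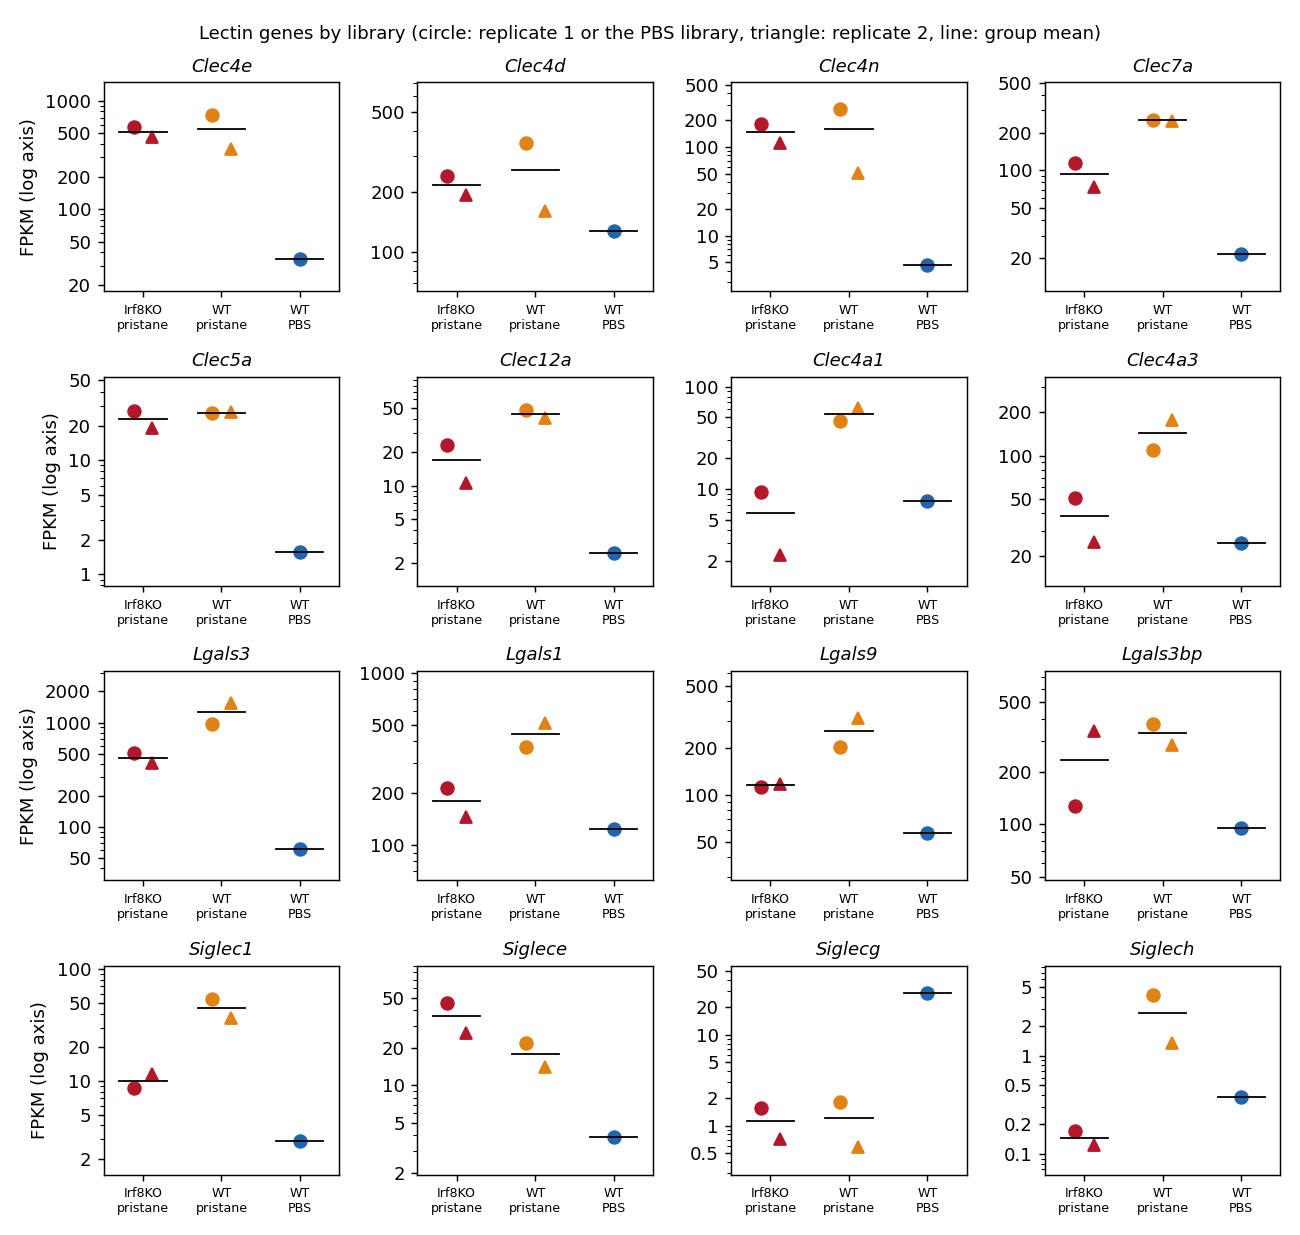
FPKM on log axes for 16 members, with Irf8KO pristane, WT pristane and WT PBS from left to right in each panel and 1 point per library. Black lines are group means, and each panel has its own axis. Clec4e, Clec4d, Clec4n and Clec5a overlap between the groups given pristane, while Clec7a, Clec12a, Clec4a1, Clec4a3, Lgals3, Lgals1, Lgals9, Siglec1 and Siglech are lower in both Irf8KO-labelled libraries.

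Activating C-type lectins lie in the same runs of genes on the chromosome as the DCIR genes and Clec12a. In RefSeq, 9 genes from Clec4a1 to Clec4e follow each other with no other protein-coding gene between them, and so do 6 genes from Clec12a to Clec7a. In the first run Clec4a1, Clec4a3, Clec4a4, Clec4b1 and Clec4a2 were lower in both Irf8KO-labelled libraries than in either WT pristane library. Of these, Clec4a4 and Clec4b1 stayed at or under 2.07 FPKM. Clec4b2, which did not exceed 0.293 FPKM, overlapped, as did Clec4n, Clec4d and Clec4e at the far end. The ratio of Clec4a3 to Clec4e was 0.0895 and 0.0541 in the Irf8KO-labelled libraries, 0.147 and 0.497 in WT pristane and 0.713 in WT PBS. The ratio of Clec4a1 to Clec4e was 0.0165 and 0.00491, 0.0623 and 0.175, and 0.220 in the same libraries. The 2 WT pristane replicates also differed here: replicate 2 held more Clec4a1 and Clec4a3 and less Clec4n, Clec4d and Clec4e than replicate 1. The differences between genes were not tested. In the second run only the end genes Clec12a and Clec7a exceeded 10 FPKM in any library. Clec12b overlaps Clec1b, Clec9a and Clec1a in RefSeq, and Smart-seq2 reads carry no strand, but Clec12b itself was listed at 0.

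**Figure D4:**
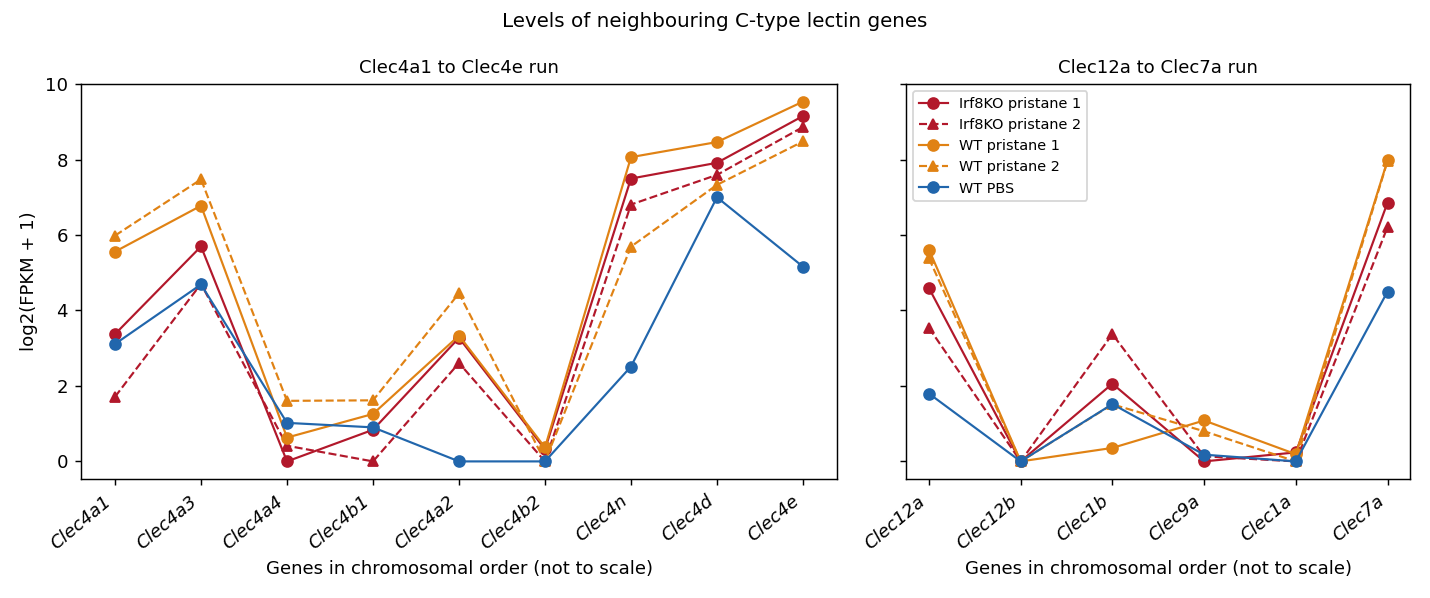
Levels as log2(FPKM + 1) of C-type lectin genes in their chromosomal order, with the run from Clec4a1 to Clec4e on the left and the run from Clec12a to Clec7a on the right and 1 line per library. Distances are not to scale. The Irf8KO-labelled libraries lie below both WT pristane libraries at Clec4a1, Clec4a3, Clec4a4, Clec4b1 and Clec4a2 and between them at Clec4n, Clec4d and Clec4e.

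The Clec2 genes encode ligands for receptors of the Klrb1 family on natural killer cells, and the 2 that passed a test were highest in the resting peritoneum. Clec2g was listed at 0 in both Irf8KO-labelled libraries and stood at 0.636 and 0.447 FPKM in WT pristane and 6.26 FPKM in WT PBS. Clec2i stood at 0.276 and 0 FPKM in the Irf8KO-labelled libraries, 0.727 and 0.483 FPKM in WT pristane and 4.68 FPKM in WT PBS. In both genes all 4 pristane libraries lay under 1 FPKM, so both entered the tests only through the WT PBS library. Clec2g fell by 2.24 ± 0.19 (SE, adjusted p = 0.0257, limma) and Clec2i fell by 1.83 ± 0.25 (adjusted p = 0.0348, limma) in WT pristane against WT PBS, on the log2(FPKM + 1) scale, which understates changes of such low genes. In Irf8KO pristane against WT PBS both passed as well (adjusted p = 0.0274 for Clec2g and 0.0324 for Clec2i, limma). Clec2i lost both calls with a pseudocount of 0.1 (adjusted p = 0.153 and 0.0766). These genes are neighbours and alike in sequence. Clec2d, the ligand of the inhibitory receptor Klrb1d, did not exceed 2.84 FPKM. Natural killer cell markers (6 of 6) summed to 33.3 and 24.1 FPKM, 90.0 and 78.2 FPKM, and 3.36 FPKM.

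Among the remaining Clec genes, Clec16a, which acts in the clearance of mitochondria rather than in sugar binding, stood at 2.15 and 2.03 FPKM in the Irf8KO-labelled libraries, 2.28 and 1.62 FPKM in WT pristane and 3.43 FPKM in WT PBS, and passed in no comparison. Clec4g, a lectin known from liver endothelium, was listed at 0 in 3 libraries and held 1.18 FPKM in 1 Irf8KO-labelled library and 1.30 FPKM in WT PBS. Clec4f, the marker of liver macrophages, reached 0.426 FPKM in 1 Irf8KO-labelled library and was listed at 0 elsewhere. Clec14a, an endothelial member, stayed at or under 0.167 FPKM.

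Of the galectins, Lgals3 and Lgals9 rose in WT pristane against WT PBS and Lgals3 in Irf8KO pristane against WT PBS, and the values of Lgals1, Lgals3 and Lgals9 were lower in both Irf8KO-labelled libraries than in either WT pristane library. Lgals3 encodes galectin-3, also known as the macrophage antigen Mac-2 and the one chimera-type galectin. It stood at 514 and 407 FPKM in the Irf8KO-labelled libraries, 970.1 and 1553 FPKM in WT pristane and 61.6 FPKM in WT PBS. The 3 groups did not overlap. Lgals3 rose by 4.30 ± 0.38 (SE) in WT pristane against WT PBS (adjusted p = 0.0257, limma) and by 2.87 ± 0.38 in Irf8KO pristane against WT PBS (adjusted p = 0.0378, limma). Lgals3 differed between the pristane groups by −1.42 ± 0.31 (95% interval −2.28 to −0.56, adjusted p = 0.140, limma).

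Lgals9 encodes galectin-9, a tandem-repeat galectin known as a ligand of the receptor Tim-3. It stood at 112 and 118 FPKM in the Irf8KO-labelled libraries, 204 and 310.1 FPKM in WT pristane and 56.9 FPKM in WT PBS. Again no groups overlapped, and the rise in WT pristane against WT PBS was 2.13 ± 0.32 (SE, adjusted p = 0.0384, limma). The change in Irf8KO pristane against WT PBS was 1.01 ± 0.32 (adjusted p = 0.119, limma) and that between the pristane groups −1.12 ± 0.26 (adjusted p = 0.152, limma). Lgals1 encodes galectin-1, a prototype galectin that restrains T cells. It stood at 215 and 145 FPKM in the Irf8KO-labelled libraries, 369 and 510.5 FPKM in WT pristane and 124 FPKM in WT PBS, with a log2 change against PBS of 1.80 ± 0.36 in WT pristane that missed the threshold (adjusted p = 0.0580, limma). The ratio of Lgals3 to Lgals1 was 2.39 and 2.81 in the Irf8KO-labelled libraries, 2.63 and 3.04 in WT pristane and 0.496 in WT PBS, so the pristane libraries overlapped in this ratio although their levels did not.

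Lgals8 encodes galectin-8, which marks damaged vesicles for autophagy. Its values were 11.6 and 12.3 FPKM in the Irf8KO-labelled libraries, 15.8 and 30.1 FPKM in WT pristane and 14.4 FPKM in WT PBS, and no comparison passed. Lgals3bp is a secreted glycoprotein that binds galectin-3 and is not itself a galectin. It stood at 127 and 341 FPKM in the Irf8KO-labelled libraries, 377 and 286 FPKM in WT pristane and 95.2 FPKM in WT PBS, so the groups given pristane overlapped and its log2 change between them was −0.65 ± 0.54 (SE, adjusted p = 0.544, limma). Lgals7, a galectin of stratified epithelia, was listed at 0 and 3.75 FPKM in the Irf8KO-labelled libraries and at 0 in WT PBS, and stood at 0.797 and 1.19 FPKM in WT pristane. Lgals4 appeared only in WT pristane replicate 2, at 0.279 FPKM, and it is alike in sequence to Lgals6.

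Of the 5 Siglecs, Siglec1 rose and Siglecg fell in WT pristane against WT PBS, and Siglece rose and Siglecg fell in Irf8KO pristane against WT PBS. Siglec1 encodes sialoadhesin (CD169), a macrophage receptor whose gene is known to respond to interferon. It stood at 8.66 and 11.5 FPKM in the Irf8KO-labelled libraries, 53.7 and 36.7 FPKM in WT pristane and 2.90 FPKM in WT PBS. All 3 groups stood apart, and Siglec1 had the smallest p of all members between the pristane groups. That change was −2.05 ± 0.28 (SE, 95% interval −2.82 to −1.28, unadjusted p = 0.00182, adjusted p = 0.0875, limma). The adjusted p (limma) was 0.0280 when the test was limited to genes with a mean of at least 5 FPKM. It was 0.0179 with only the pristane libraries in the fit. Other settings left Siglec1 over the threshold: 0.0963 with a pseudocount of 0.1, 0.173 with replicate number as a block and 0.179 without a filter on low values. In WT pristane against WT PBS Siglec1 rose by 3.54 ± 0.34 (adjusted p = 0.0267, limma), and in Irf8KO pristane against WT PBS the change was 1.49 ± 0.34 (adjusted p = 0.0742, limma).

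Siglece, the main inhibitory Siglec of mouse neutrophils and monocytes, ran the other way between the pristane groups. It stood at 45.3 and 26.3 FPKM in the Irf8KO-labelled libraries, 21.6 and 14.1 FPKM in WT pristane and 3.86 FPKM in WT PBS. Siglece rose by 2.87 ± 0.46 (SE) in Irf8KO pristane against WT PBS (adjusted p = 0.0457, limma), and the change in WT pristane against WT PBS was 1.93 ± 0.46 (adjusted p = 0.0753, limma). Both Irf8KO-labelled libraries lay above both WT pristane libraries, with a log2 change of 0.94 ± 0.37 (adjusted p = 0.268, limma) that was 0.56 to 1.32 with any 1 pristane library left out. The ratio of Siglece to Siglec1 was 5.22 and 2.30 in the Irf8KO-labelled libraries, 0.403 and 0.383 in WT pristane and 1.33 in WT PBS. The neutrophil marker sum given above was also higher in the Irf8KO-labelled libraries, and S100a8 and S100a9 made up most of it. The median log2 change of the 7 markers between the pristane groups was 1.03, with Il1r2 at −0.95 and Csf3r at 0.07. The part of neutrophils in the level of Siglece was not tested.

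Siglecg, an inhibitory receptor of B cells and in particular of the B-1 cells of the peritoneum, stood at 1.56 and 0.709 FPKM in the Irf8KO-labelled libraries, 1.83 and 0.574 FPKM in WT pristane and 28.8 FPKM in WT PBS. It fell by 3.82 ± 0.50 (SE, adjusted p = 0.0338, limma) in WT pristane and fell by 3.83 ± 0.50 (adjusted p = 0.0378, limma) in Irf8KO pristane against WT PBS. B cell markers (6 of 6) summed to 180.3 and 96.0 FPKM in the Irf8KO-labelled libraries, 39.4 and 8.97 FPKM in WT pristane and 2343 FPKM in WT PBS. In the Irf8KO-labelled libraries against WT pristane, 4 of the 6 B cell markers were higher at an unadjusted p under 0.05 (limma), where 10.5% of all genes were. Of the 6, 0 passed the adjusted threshold. The other markers were Pax5, with a log2 change of 0.78, and Cd5, which went the other way at −0.88. Siglecg had a log2 change of −0.01 ± 0.41. Siglecg lost both calls with a pseudocount of 0.1 (adjusted p = 0.0631 and 0.0687).

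Siglech, a receptor of plasmacytoid dendritic cells that signals through Tyrobp, was seen above 1 FPKM only in WT pristane. It stood at 0.171 and 0.123 FPKM in the Irf8KO-labelled libraries, 4.12 and 1.35 FPKM in WT pristane and 0.378 FPKM in WT PBS. The change between the pristane groups was −1.60 ± 0.43 (SE, adjusted p = 0.175, limma). Siglech entered this test only through WT pristane, the group where it was high. Of the 6 plasmacytoid markers listed beside it, Ccr9 stood at 0.0441 and 0.0638 FPKM in the Irf8KO-labelled libraries, 1.79 and 0.759 FPKM in WT pristane and 1.86 FPKM in WT PBS. The whole list, which includes Irf8 itself, summed to 188 and 133 FPKM, 446 and 309 FPKM, and 100.3 FPKM, and its members did not move together: the median log2 change between the pristane groups was −0.03, with Irf8 at 0.60, Cox6a2 at 0.67 and Pacsin1 at 0.18 and with Bst2, Ccr9 and Tcf4 below 0. Bst2, which interferon also induces, held 64.8 and 69.4 FPKM, 378 and 256 FPKM, and 54.3 FPKM. The row listed as Siglec5 stood at 1.61 and 1.87 FPKM in the Irf8KO-labelled libraries, 3.09 and 4.09 FPKM in WT pristane and 1.13 FPKM in WT PBS, with a log2 change between the pristane groups of −0.74 ± 0.22 (adjusted p = 0.196, limma). RefSeq gives Siglec5 as an older name of both Siglecf, the Siglec of eosinophils, and Siglece, and Siglece has its own row. Of 7 eosinophil markers Epx was listed at 0 throughout, and the list summed to 7.40 and 12.7 FPKM, 17.0 and 24.1 FPKM, and 21.1 FPKM.

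Of 16 genes of C-type lectin signalling, which work with these receptors, 15 were tested. In WT pristane against WT PBS 1 rose and 0 fell, where 10.6% of all genes were called, and in Irf8KO pristane against WT PBS 2 rose and 0 fell, where 8.54% were. Fcer1g, the adaptor of Mincle, MCL and dectin-2, stood at 2921 and 2383 FPKM in the Irf8KO-labelled libraries, 1925 and 1499 FPKM in WT pristane and 362 FPKM in WT PBS. It rose by 2.86 in Irf8KO pristane (adjusted p = 0.0319, limma) and by 2.23 in WT pristane (adjusted p = 0.0348, limma). Tyrobp, the adaptor of Clec5a and Siglech, stood at 4680 and 3841 FPKM, 2561 and 2153 FPKM, and 1145 FPKM, and rose by 1.89 in Irf8KO pristane against WT PBS (adjusted p = 0.0457, limma). Syk itself had a log2 change of −1.48 in Irf8KO pristane and −1.40 in WT pristane against WT PBS, neither past the threshold (adjusted p = 0.0538 and 0.0529, limma). None of the 15 passed between the pristane groups (0 by limma). At an unadjusted p under 0.05, 1 was higher and 1 lower, where 10.5% of all genes were higher and 10.1% lower.

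Further genes with a C-type lectin fold but another symbol gave 2 that rose (Olr1 and Cd44) and 4 that fell (Selp, Cd209b, Fcer2a and Colec12) among 21 tested of 28 in WT pristane against WT PBS, where 5.18% of all genes rose and 5.46% fell. In Irf8KO pristane against WT PBS 1 rose (Olr1) and 3 fell (Cd209b, Fcer2a and Colec12), where 3.81% of all genes rose and 4.72% fell. Olr1, the receptor for oxidized lipoprotein and the neighbour of Clec7a, held 28.7 and 28.3 FPKM in the Irf8KO-labelled libraries, 49.3 and 26.8 FPKM in WT pristane and 0.963 FPKM in WT PBS. Cd22, a B cell Siglec under another name, held 2.36 and 1.54 FPKM, 1.82 and 1.44 FPKM, and 34.0 FPKM, and fell in both comparisons with PBS, where it fell by 3.58 for Irf8KO pristane (adjusted p = 0.0282, limma) and fell by 3.74 for WT pristane (adjusted p = 0.0247, limma). Cd33 and Mag did not pass.

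On the side of the sugars, 2 of 17 tested genes of sialic acid synthesis and transfer fell in each comparison with PBS and 0 rose, where 4.72% of all genes fell in Irf8KO pristane and 5.46% in WT pristane. They were Cmah, which makes the N-glycolyl form of sialic acid, and St6gal1, which attaches the sialic acid that Cd22 binds. Cmah held 1.32 and 1.60 FPKM in the Irf8KO-labelled libraries, 0.771 and 0.949 FPKM in WT pristane and 9.31 FPKM in WT PBS. St6gal1 held 19.3 and 17.9 FPKM, 18.5 and 21.3 FPKM, and 49.5 FPKM. Of 11 genes that build the glycans galectins bind, 2 rose (Gcnt2 and B4galt5) and 1 fell (C1galt1) in WT pristane against WT PBS, and 1 rose (Gcnt2) and 1 fell (C1galt1) in Irf8KO pristane against WT PBS, where 10.6% and 8.54% of all genes were called in the 2 comparisons. Gcnt2, which branches lactosamine chains, held 10.5 and 10.7 FPKM in the Irf8KO-labelled libraries, 10.7 and 14.0 FPKM in WT pristane and 0.637 FPKM in WT PBS. Between the pristane groups 0 genes of these lists passed (limma). At an unadjusted p under 0.05, 2 genes with a C-type lectin fold were higher and 3 lower, 2 sialic acid genes were higher and 1 lower, and 0 galectin ligand genes were higher and 2 lower. Over all genes tested, 10.5% were higher and 10.1% lower at that level.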

How the data were processed

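RNA of 5 mouse peritoneal lavage libraries was sequenced by Smart-seq2, per the labels' protocols. Although its name speaks of counts, the deposited table holds FPKM values made by the authors. The submitters' processing notes list the tools TopHat2 2.0.10, Cufflinks 2.2.1, Cuffnorm and BWA and give no roles. No genome build, annotation or scaling between libraries is stated there.

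The main test was limma-trend (limma 3.58.1, R 4.3.3) on log2 values of FPKM plus a pseudocount of 1, for the 11117 of 22815 genes that reached 1 FPKM in any library. One model held the 3 groups and every library (2 residual and 1.99 prior degrees of freedom), and 2-sided p-values were adjusted by Benjamini-Hochberg over all genes tested, with a threshold of 0.05. The model was tested on simulated data. Depth was estimated from the steps between low values: 62.1% to 81.1% of them lay within 0.15 of a whole fragment, too few to recover counts.

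The members, gene lists and markers were chosen with earlier results of these data known. Values per library are given for members past the threshold, the 5 highest of each family and the 8 with the smallest p in each comparison. Other members, and Syk, Cd33, Mag, Ccr9, Xcr1, Cox6a2, Pacsin1, Tcf4 and the platelet genes other than Pf4, were named after their values were seen. Emr1 stood for Adgre1. Promoters and gene order are from RefSeq (GRCm38.p6), where 37 of 38 members matched by symbol or older symbol.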

Additional observations from a re-analysis of the deposited data

How the results depend on the processing

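Leaving out any 1 of the 4 pristane libraries gave 0 members past the threshold in each of the 3 comparisons. So did the replicate block for both comparisons with WT PBS, and so did fits with only the 2 groups compared (0 and 0); these fits have 1 residual degree of freedom. Without a filter the counts of members were 6 for WT pristane and 3 for Irf8KO pristane against WT PBS, where 1273 (8.35%) and 1160 (7.61%) of 15245 genes passed, more genes than as reported, and with a pseudocount of 0.1 the count for Irf8KO pristane was 5. Between the pristane groups 1 member passed with a mean of at least 5 FPKM and 3 with only these 4 libraries. Over all genes the counts were 242 and 431 there, 846 (WT pristane) and 641 (Irf8KO pristane) against PBS with the pseudocount, and 0 with the block in all 3 comparisons. Scaling to summed FPKM moved the median of all genes to −0.18 between the pristane groups and to −0.24 for Irf8KO pristane against WT PBS, where 336 genes were then higher and 726 lower, against 424 and 525 as reported.

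The median log2 change of the members ranged over all alternatives from −1.08 (pseudocount 0.1) to −0.39 (no filter, all 38 members) between the pristane groups, from 0.68 (no filter) to 2.66 (mean of at least 5 FPKM) in WT pristane against WT PBS, with 2.01 for the pseudocount, and from 0.23 (no filter) to 1.49 (mean of at least 5 FPKM) in Irf8KO pristane against WT PBS. With any 1 library left out, other printed changes that moved by over 1.5 times were those between the pristane groups of Clec12a (−1.96 to −0.90) and Siglech (−2.16 to −1.03).

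The replicate numbers share no stated source. Differences between replicates 1 and 2 correlated at 0.0448 across genes between the pristane groups, and the block left 0 members past the threshold, with 15 (Irf8KO pristane against WT pristane), 19 and 14 members at an unadjusted p under 0.05 (limma).

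Changes of sign occurred between the pristane groups for small differences. With a pseudocount of 0.1 Clec4e came to 4.5e-06 and Siglecg to 0.021. With 1 library left out Clec4d ranged from −0.71 to 0.42, Clec4e from −0.53 to 0.53, Clec4n from −0.91 to 1.46, Clec5a from −0.44 to 0.040, Lgals3bp from −1.36 to 0.056 and Siglecg from −0.44 to 0.41. Clec4a1 in Irf8KO pristane against WT PBS ranged from −1.40 to 0.26. Of the members for which a log2 change is printed, no other changed sign under the alternatives run; the remaining tested members were not run singly. Clec9a could not be fitted without WT pristane replicate 1, where it fell under the filter.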
